A study of Rattus norvegicus with 16 samples.

Results

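The 16 epididymal fat pads of this series differed widely in Ucp1, the uncoupling protein of heat-producing fat cells, and the animals are described here by that level. The 16 arrays were ranked by the signal of the Ucp1 probe, and the 8 animals of highest Ucp1 (the high side) were set against the 8 of lowest Ucp1 (the low side). The sides were thus chosen by the measured values themselves. Every high against low value below is a description with no test, and Ucp1 was left out of all counts of genes. All 16 animals of the series were used, 8 on each side. The animals were male rats killed at 30 days of age with food freely available. Their dams ate a high-fat diet through pregnancy and lactation, and the pups stayed on that diet until they were killed. In the HF group (8 animals) the dams drank low-fat condensed milk as vehicle, and in the HFT group (8 animals) that milk carried 25 mg of a grape seed procyanidin extract (GSPE) per kg body weight. All 16 animals therefore share the high-fat diet. RNA came from the EWAT, the white fat depot beside the epididymis in the abdomen, and each animal had its own Agilent array of 1 colour. The labels do not tie animals to dams or litters, so p-values measure only the spread between these animals.

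Ucp1 sits in the inner mitochondrial membrane of brown and beige adipocytes and lets protons flow back without making ATP, so that the energy of burnt fuel leaves as heat. Such cells hold many mitochondria and many small lipid droplets, oxidise fatty acids and are switched on by noradrenaline through beta-adrenergic receptors and cyclic AMP. The epididymal pad of rodents is a white depot that is known for few such cells. Whole tissue was measured, so fewer cells of a type and less RNA per cell cannot be told apart.

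The stretch upstream of the gene start is shown for Ucp1, by which the animals were ranked, and for Cox8b, the gene whose signal went most closely with it. Each sequence is the 250 bases before the start of the gene, from RefSeq, build GRCr8, read 5′ to 3′ on the strand of the gene. Capitals mark TATAAA (the TATA box) and TGACG (the core of the cyclic AMP response element), searched on both strands. The Ucp1 stretch is chr19:41721422-41721671 and the Cox8b stretch chr1:205408274-205408523, both on the minus strand.
Ucp1: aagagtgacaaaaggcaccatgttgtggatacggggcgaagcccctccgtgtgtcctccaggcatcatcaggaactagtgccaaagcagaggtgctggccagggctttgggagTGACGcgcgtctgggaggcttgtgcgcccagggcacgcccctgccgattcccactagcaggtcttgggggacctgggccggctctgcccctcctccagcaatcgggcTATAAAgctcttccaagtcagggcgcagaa
Cox8b: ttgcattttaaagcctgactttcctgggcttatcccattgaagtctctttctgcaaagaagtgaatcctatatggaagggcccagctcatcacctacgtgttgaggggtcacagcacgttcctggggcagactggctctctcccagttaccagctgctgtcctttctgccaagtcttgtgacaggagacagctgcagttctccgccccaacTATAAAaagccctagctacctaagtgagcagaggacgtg
Both stretches held 1 TATAAA, which began 30 bases before the start of Ucp1 and 39 bases before that of Cox8b. Ucp1 also held 1 TGACG, 137 bases before the start, and the Cox8b stretch held none. Of 33469 RefSeq promoters of this length, 12.9% held TATAAA and 18.2% held TGACG. Of the 173 genes with a rank correlation with Ucp1 of at least 0.7 that have a promoter in this table, 7 (4.05%) held TATAAA and 52 (30.1%) TGACG, against 7.89% and 26.6% of all measured genes. The nuclear receptor half-site AGGTCA and its extended form AAGGTCA were searched too. Of the 173 genes 16.8% and 2.89% held them, against 11.5% and 2.83% of all measured genes. A match of letters is a description and does not show that a factor binds there.

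Ucp1 signal is given as log2 relative to the array's 75th percentile, the scale of all levels below. On the low side it was -0.80 in HFT 26, 0.09 in HF 8, 0.33 in HFT 28, 0.42 in HFT 23, 1.08 in HF 13, 1.36 in HF 9, 1.55 in HFT 25 and 1.55 in HF 10. On the high side it was 2.92 in HFT 27, 2.98 in HF 12, 3.06 in HFT 24, 3.30 in HF 11, 3.72 in HF 14, 3.82 in HFT 36, 5.18 in HFT 22 and 6.75 in HF 35. The span from lowest to highest was 7.55 log2 units, or 187-fold, and the animals just inside and just outside the dividing line were HFT 27 at 2.92 and HF 10 at 1.55. The means were 3.96 ± 1.35 (SD, n = 8) and 0.70 ± 0.83 (SD, n = 8), a 9.63-fold ratio. The Ucp1 probe was well above background on all 16 arrays.

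**Figure D1:**
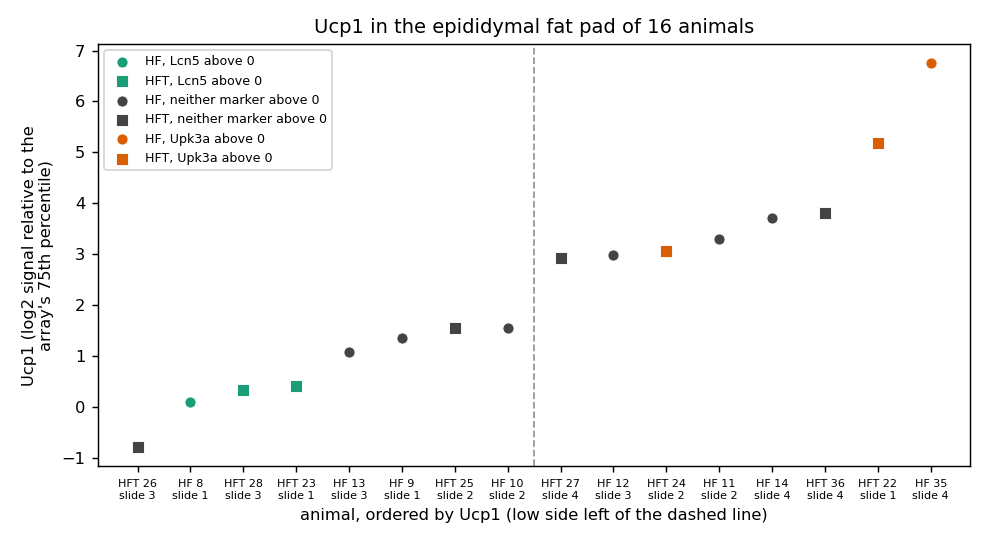
Ucp1 signal (log2 relative to the array's 75th percentile, vertical axis) of the 16 animals in ascending order (horizontal axis, with the slide of each array); circles are HF and squares HFT, and colour marks arrays with Upk3a or Lcn5 above 0. Each side of the dashed line holds 4 HF and 4 HFT animals, and the marked arrays fall 3 on each side.

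The labelled groups were evenly spread over the ranking, with 4 HF and 4 HFT animals on each side. Ucp1 ran from 0.09 to 6.75 in HF and from -0.80 to 5.18 in HFT, and the groups overlapped over most of that range. The HF mean was 2.60 ± 2.08 (SD, n = 8) and the HFT mean 2.06 ± 2.02 (SD, n = 8). HFT minus HF was -0.54 log2 units (SE 0.96, 95% interval -2.58 to 1.49). This did not pass the two-sided exact permutation test over all assignments of 8 animals to each group (p = 0.608), nor limma with Benjamini-Hochberg adjustment over 21808 probes (adjusted p = 0.999994). Within the 4 slides the difference was 2.08, -0.12, -2.26 and -1.87, so its sign was not the same on every slide. In limma, 0 of the 21808 probes passed an adjusted p of 0.05 (0%), and 515 were under an unadjusted p of 0.05 (2.36%).

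Several arrays stood apart, and they were not spread evenly over the sides. Upk3a, a membrane protein of the bladder lining, was above 0 on HFT 24 (4.69), HFT 22 (2.95) and HF 35 (4.69), all on the high side. Lcn5, a lipocalin secreted by the epididymis, was above 0 on HF 8 (4.12), HFT 28 (4.12) and HFT 23 (3.42), all on the low side. All 4 arrays of slide 4 were on the high side, against 1 of 4 on slides 1 and 3 and 2 of 4 on slide 2. The 75th percentile of the intensity was 898 to 1110 on the high side and 753 to 1366 on the low side, with a median of 71.1% of probes well above background on both. The number of arrays, not a read depth, limits the precision. The comparisons below are therefore repeated over the 10 animals with neither marker above 0, which are 5 of the high side (HFT 27, HF 12, HF 11, HF 14 and HFT 36) and 5 of the low side (HFT 26, HF 13, HF 9, HFT 25 and HF 10). Over these 10, Ucp1 was 5.27-fold higher on the high side. HF 9, a low-side animal, stays among the 10 although it also stood apart: it had the highest mean level of the 16 animals in the skeletal muscle list (-0.88) and in the smooth muscle list (2.95), and the third highest in the epididymal list (0.98). Ces5a, an epididymal carboxylesterase, was 3.68 there and at most 2.08 elsewhere. Values over the 9 animals without HF 9 as well, a choice made after seeing the data, are given for the main genes and lists. These 9 are 5 high and 4 low animals.

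Signals of 11591 genes other than Ucp1 were compared. Ranges that did not overlap between the sides were rare: 2 genes were wholly higher on the high side (0.0173%) and 2 wholly lower (0.0173%). The higher pair was Cox8b and Colq. The lower pair was Igsf8, a cell-surface immunoglobulin protein, at means of 0.33 and 0.62 on the high and low sides, and Rcn1, a calcium-binding protein of the endoplasmic reticulum, at 0.68 and 1.03. Igsf8 and Rcn1 were named after their values were seen. A difference of at least 1 log2 unit was found in 47 genes upwards (0.405%) and 219 downwards (1.89%). Spearman's rho with Ucp1 was at least 0.7 in 207 genes (1.79%) and at most -0.7 in 99 (0.854%). These shares use the values that ranked the animals and are given as a yardstick for the lists below. The median gene differed by 0.019 log2 units and had a rho of 0.05, and 55.2% of genes had a difference above 0.

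Cox8b, a subunit of cytochrome c oxidase found in muscle and thermogenic fat, went most closely with Ucp1. It was -1.27 in HFT 26, -0.11 in HF 8, -0.25 in HFT 28, -0.58 in HFT 23, -0.10 in HF 13, 0.19 in HF 9, 0.74 in HFT 25 and 0.33 in HF 10. On the high side it was 1.99 in HFT 27, 2.11 in HF 12, 2.44 in HFT 24, 2.22 in HF 11, 2.46 in HF 14, 2.82 in HFT 36, 3.78 in HFT 22 and 4.66 in HF 35. The sides did not overlap, and the animals kept nearly the order of Ucp1, with HFT 26 lowest and HF 35 highest. The means were 2.81 ± 0.94 and -0.13 ± 0.61 (SD, n = 8 each), a 7.67-fold ratio. Spearman's rho was 0.98 and Pearson's r 0.99 over 16 animals, and r was 0.98 without HFT 26 and HF 35, the 2 animals farthest from the median Ucp1. The rank correlation was also 0.88 among the 8 low animals alone and 0.98 among the 8 high ones. Over the 10 animals with neither marker the ratio was 5.06-fold and rho 0.99, and over 9 the difference was 2.39 with a rho of 0.98.

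Cidea, a lipid droplet protein of brown adipocytes, and Otop1, a proton channel of brown fat, are the other markers of thermogenic adipocytes that were fixed for these animals. Cidea ran from 3.40 to 4.37 on the low side (median 3.89) and from 4.26 to 5.65 on the high side (median 4.68). The sides overlapped only through HFT 24 on the high side, which at 4.26 lay below HF 10. The difference was 0.84 log2 units, or 1.79-fold, with a rho of 0.91, and 0.53 with a rho of 0.87 over 10 animals (0.48 over 9). Otop1 ran from -4.82 to -4.00 on the low side (median -4.39) and from -4.11 to -3.25 on the high side (median -3.81). The sides overlapped at their edges, and the highest animal was HFT 36, not HF 35. Otop1 differed by 0.63 log2 units, or 1.55-fold, with a rho of 0.86, and by 0.49 with a rho of 0.87 over 10 animals (0.40 over 9). All 3 markers were thus higher on the high side, Cox8b by a ratio near that of Ucp1 and Cidea and Otop1 by less.

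**Figure D2:**
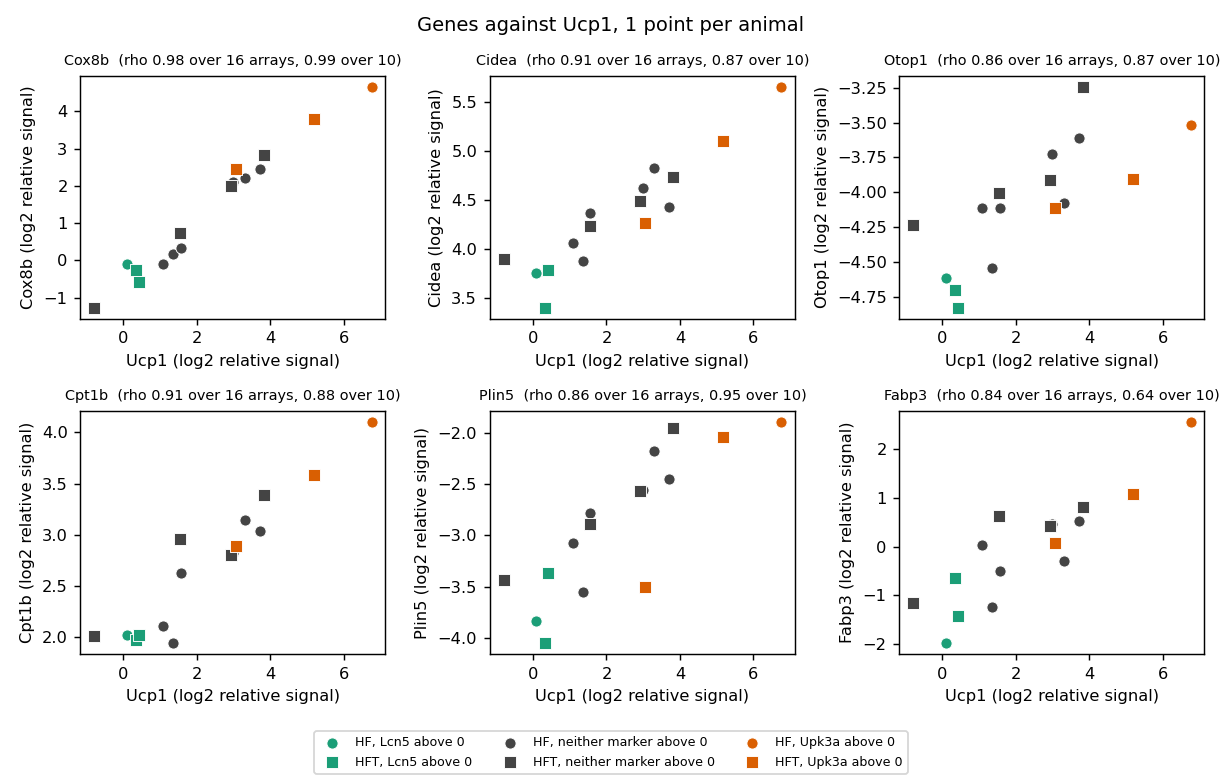
Signal of 6 genes (vertical axes, log2 relative to the array's 75th percentile) against Ucp1 (horizontal axes, same scale), 1 point per animal; circles are HF, squares HFT, orange marks Upk3a above 0 and green Lcn5 above 0. Cox8b lies nearly on a line, with rho 0.98 over 16 animals and 0.99 over 10, while Fabp3 is more scattered (0.84 and 0.64).

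Colq, the collagen tail that anchors acetylcholinesterase, was the other gene that was higher with no overlap. It ran from -7.72 to -6.09 on the low side (median -6.61), where 4 of 8 arrays were well above background, and from -6.01 to -3.28 on the high side (median -5.54). The sides came close to each other, at -6.09 in HF 9 and -6.01 in HFT 27, and HF 35 stood highest. The difference was 1.51 log2 units with a rho of 0.95, and 0.99 with a rho of 0.94 over 10 animals. Cpt1b, the muscle and brown fat form of the carnitine palmitoyltransferase that admits fatty acids to mitochondria, was 1.94 to 2.96 on the low side (median 2.02) and 2.80 to 4.10 on the high side (median 3.09). HFT 25 was the low animal that reached into the high range. Cpt1b differed 2.02-fold (rho 0.91) over 16 animals and 1.64-fold (rho 0.88) over 10.

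Plin5, a droplet protein that ties lipid droplets to mitochondria, was -4.05 to -2.78 on the low side (median -3.40) and -3.50 to -1.90 on the high side (median -2.32). The overlap came from HFT 24, which at -3.50 lay among the low animals. Without the marked arrays, HFT 24 among them, rho went from 0.86 to 0.95, with a difference of 0.80 log2 units. Fabp3, the heart-type fatty acid carrier, was -1.99 to 0.62 on the low side (median -0.90) and -0.30 to 2.56 on the high side (median 0.49). Its sides overlapped widely, and the ratio went from 2.82-fold (rho 0.84) over 16 animals to 1.78-fold (rho 0.64) over 10.

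Of the 52 genes of the thermogenic adipocyte list, 40 besides Ucp1 were measured. Of these, 32 were higher and 8 lower on the high side, with a median difference of 0.38 log2 units and a median rho of 0.43, against 0.019 and 0.05 over all genes. A rho of at least 0.7 was reached by 13 of the 40, against 1.79% of all genes; the list was chosen with earlier results known and holds genes picked for thermogenic fat. Over 10 animals 29 of the 40 were higher, the median difference was 0.17 and 8 had a rho of at least 0.7. Of all genes 51.2% were higher over 10 animals and 2.02% had a rho of at least 0.7, the yardstick for the lists below. Over 9 animals 26 of the 40 were higher with a median of 0.14. Besides the genes above, Pdk4, the kinase that closes pyruvate dehydrogenase, differed by 1.10 (rho 0.74), Gpd2, the mitochondrial glycerol phosphate dehydrogenase, by 0.76 (rho 0.82), and Gk, glycerol kinase, by 0.62 (rho 0.74). Acaa2, the last thiolase of mitochondrial beta-oxidation, differed by 0.73 (rho 0.79), Letmd1, an inner membrane protein of mitochondria, by 0.56 (rho 0.89), and Ppara, the fatty acid receptor that drives oxidation genes, by 0.46 (rho 0.73). Over 10 animals these differences were 0.72 for Pdk4, 0.30 for Gpd2, 0.49 for Gk, 0.63 for Acaa2, 0.21 for Letmd1 and 0.22 for Ppara. Gk stood at 0.72 in HF 35 against -1.80 to -0.56 in the other animals, but its rho was 0.95 over the 10 unmarked animals.

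Other members had a lower rho with Ucp1 or a difference that shrank without the marked arrays. Ppargc1a, the coactivator of mitochondrial biogenesis, differed by 0.24 (rho 0.16) and was -6.62 in HFT 28. Adrb3, the beta-3 adrenergic receptor, differed by 0.15 (rho 0.23), and Ebf2, a transcription factor of brown fat precursors, by 0.19 (rho 0.41). Esrra, a nuclear receptor of oxidative genes, differed by 0.21 (rho 0.62). Over 10 animals Adrb3 was at -0.11 and Esrra at -0.10. Dio2, the deiodinase that makes active thyroid hormone in brown fat, differed by 0.76 (rho 0.52) over 16 animals, but by -0.01 over 10, and Kcnk3, a potassium channel, by 0.43 and -0.08. Aspg, an asparaginase, differed by 1.97 (rho 0.71) over 16 animals and 0.36 (rho 0.37) over 10. Of markers named for beige cells, Tnfrsf9 differed by -0.33 and Tbx1 by 0.02. Cited1 was at -0.46, with HF 9 at 3.31 against at most 0.11 in the other animals. With single animals left out the difference ran from -0.67 to 0.14. Over 9 animals, without HF 9 and the marked arrays, Cited1 was still lower, at -0.29 (rho -0.63). It was higher on 3 of 4 slides when each was split, but on slide 1 (2.37) HF 9 was among the higher Ucp1 animals. On slide 2 (0.63) the marked array at 0.11 was among them. Elovl3, which elongates fatty acids in brown fat, and Zic1, a transcription factor of the classical brown depots, were well above background on 0 arrays. Esrrg, Tmem26 and Lhx8 were above background on at most 2 arrays and Clstn3 on 3. Cox7a1, Prdm16, Acot11, Bmp8b, Cyp2b1 and Ky had no named probe.

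Genes of the respiratory chain and ATP synthase were higher on the high side by small amounts. Of 43 measured, 42 were higher and 1 (Atp5mc1, at -0.03) lower, with a median difference of 0.29 log2 units, and 22 had a rho of at least 0.7. Uqcrfs1, the iron-sulphur protein of complex III, was 3.23 to 4.10 on the low side (median 3.89) and 3.84 to 4.54 on the high side (median 4.13), with a rho of 0.86. Ndufs3, a core subunit of complex I, differed by 0.33 (rho 0.86), Sdhb, the iron-sulphur subunit of complex II, by 0.36 (rho 0.84), and Uqcrc1, a core protein of complex III, by 0.47 (rho 0.81). The ranges of these genes overlapped between the sides. Ndufv1 and Ndufc2, other complex I subunits, had the largest differences, 1.15 and 0.99, but these rest on HFT 28, at -2.43 and -2.55. The other low-side animals were at 4.42 to 4.99 for Ndufv1 and 3.76 to 4.34 for Ndufc2. Over 10 animals 39 of 43 were higher, against 51.2% of all genes, and 11 had a rho of at least 0.7, against 2.02%. The median difference was 0.11, as over 9.

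All 21 measured genes of the TCA cycle and pyruvate dehydrogenase were higher on the high side, with a median difference of 0.35, and 12 had a rho of at least 0.7. Idh3a, the catalytic subunit of the NAD-dependent isocitrate dehydrogenase, was -1.004 to -0.04 on the low side (median -0.76) and -0.25 to 0.63 on the high side (median 0.06). HFT 25 was the low animal that lay inside the high range. Idh3a differed by 0.73 (rho 0.90) and Sucla2, a succinyl-CoA synthetase subunit, by 0.63 (rho 0.86). Over 10 animals 17 of 21 were higher and the median difference was 0.15 (0.13 over 9). The carriers that bring pyruvate into mitochondria were among those that were not higher over 10, with Mpc1 at -0.24 and Mpc2 at -0.11.

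Of 30 genes of fatty acid oxidation 27 were higher on the high side, with a median difference of 0.32, and 14 had a rho of at least 0.7. The acyl-CoA dehydrogenases, which take the first step of each round, went with Ucp1 for long and medium chains: Acadl differed by 0.61 (rho 0.87), Acadvl by 0.56 (rho 0.86) and Acadm by 0.53 (rho 0.86). Acadm was 2.97 to 3.43 on the low side (median 3.15) and 3.11 to 4.46 on the high side (median 3.63), and HFT 24 was its lowest high-side animal. Its rho was 0.96 over 10 animals. Cpt2, which completes the carnitine shuttle, differed by 0.56 (rho 0.82), and Hadhb, a subunit of the trifunctional protein, by 0.66 (rho 0.74). Cpt1a, the liver form of the carnitine enzyme, was at 0.09 (rho 0.16) beside 1.01 for Cpt1b. The peroxisomal Ehhadh was lower (-0.16), and Slc27a2, a fatty acid transporter, was at -0.76 over 16 animals and 0.06 over 10. Over 10 animals 24 of 30 were higher, 8 had a rho of at least 0.7, and the median difference was 0.15, and over 9 it was 0.08 with 22 higher.

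**Figure D3:**
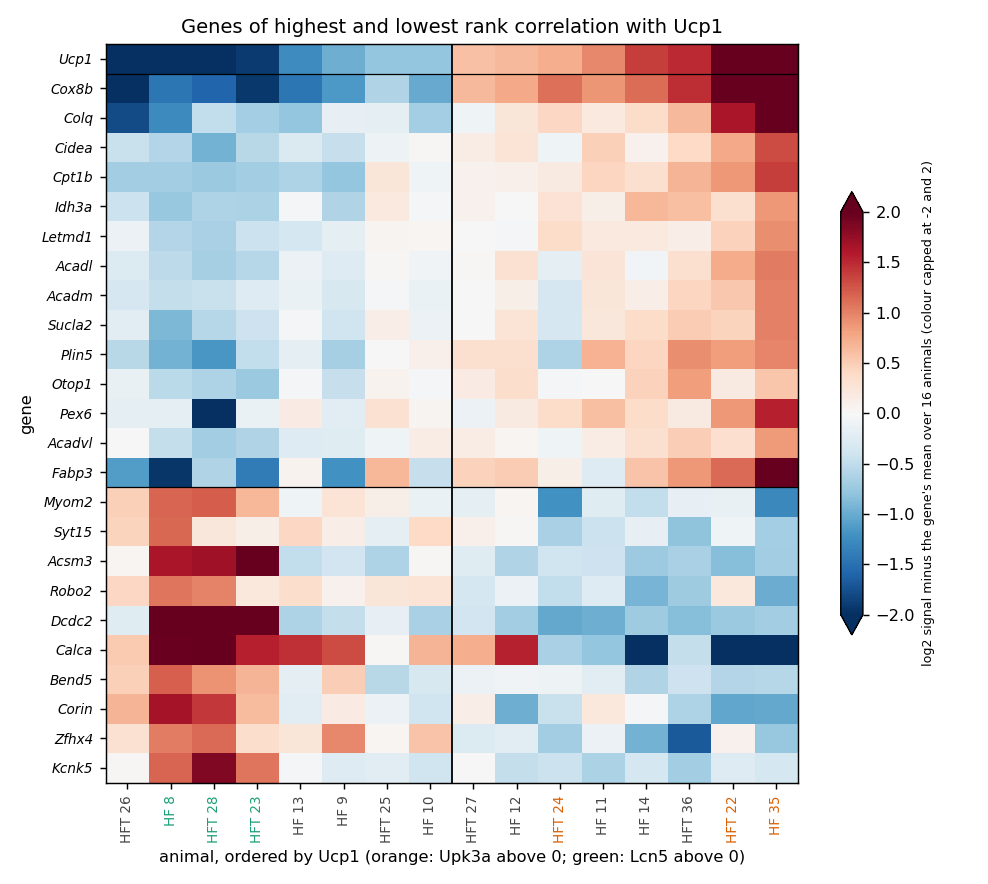
Signal of Ucp1 and of 14 genes of highest and 10 of lowest rank correlation with it (rows) in 16 animals ordered by Ucp1 (columns), as log2 signal minus the gene's mean, colour capped at -2 and 2; orange names mark Upk3a and green names Lcn5 above 0. The 3 animals with green names hold ranks 2, 3 and 4 of Ucp1 from the lowest.

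General fat cell genes differed less. Adipoq, the adiponectin gene that marks adipocytes, was 6.31 to 7.23 on the low side (median 6.84) and 6.65 to 7.06 on the high side (median 6.89), with a rho of 0.06, which also showed fat in every sample. Lep, the leptin gene, differed by 0.07 (rho -0.16). Of 21 white adipocyte genes 18 were higher, with a median difference of 0.21, but 0 had a rho of at least 0.7. Cidec, a droplet fusion protein, differed most, by 0.54 (rho 0.47). Over 10 animals 18 of the 21 were higher and 1 had a rho of at least 0.7. Their median was then 0.14, beside 0.11 to 0.15 in the mitochondrial lists, and over 9 it was 0.04 with 14 higher. Of 14 lipogenesis genes 13 were higher with a median of 0.17 and 0 with a rho of at least 0.7, and the median was -0.03 over 10 animals (-0.0013 over 9). Fasn, fatty acid synthase, differed by 0.23 (rho 0.21) and by -0.02 over 10. Of 15 genes of lipolysis and adrenergic signalling 14 were higher, with a median of 0.17, and Plin5 alone had a rho of at least 0.7. The creatine and calcium cycling genes, proposed to make heat without Ucp1, were split, with 5 of 11 higher, 6 lower and a median of -0.04.

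The 3 animals with Lcn5 above 0 hold ranks 2, 3 and 4 of Ucp1 from the lowest. A high signal in them weighs towards a negative rho with Ucp1 but does not fix its sign, so the values over 10 animals are given beside each. Dcdc2, a microtubule-binding protein, was -5.24 to -1.41 on the low side (median -4.79) and -5.61 to -4.97 on the high side (median -5.31), a difference of -1.52 (rho -0.81). Its 3 highest animals were HF 8, HFT 28 and HFT 23. Acsm3, a medium-chain acyl-CoA synthetase, differed by -1.15 (rho -0.83). Over 10 animals the high side was 0.82-fold the low side for Dcdc2 and 0.85-fold for Acsm3. The part of the epididymal markers in these values was not tested.

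Robo2 and Zfhx4 had nearly the same ratio over 10 animals as over 16. Robo2, a guidance receptor, was -4.13 to -3.14 on the low side (median -3.90) and -5.21 to -4.01 on the high side (median -4.65), with HFT 22 the highest of the high animals. It was 0.53-fold on the high side over 16 animals and 0.59-fold over 10. Zfhx4, a zinc finger homeobox factor, was 0.45-fold and 0.48-fold, with 5 of 8 high-side arrays well above background. Calca, the gene of calcitonin and CGRP, was -5.67 to -3.56 on the low side (median -4.31) and -9.09 to -4.16 on the high side (median -6.40), where 5 of 8 arrays were well above background. HF 14, HFT 22 and HF 35 lay at -9.05, -9.09 and -8.94. Calca was 0.19-fold on the high side over 16 animals and 0.41-fold over 10, which include HF 14 but neither HFT 22 nor HF 35. When each slide was split by Ucp1, Calca was lower on 3 of 4 slides and higher by 0.17 on slide 3. The differences of the other 5 genes were smaller over 10 animals than over 16 in Myom2 (-0.92 and -0.34), Bend5 (-0.67 and -0.27), Corin (-0.95 and -0.28) and Kcnk5 (-0.80 and -0.26), and less so in Syt15 (-0.67 and -0.49).

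Markers of other tissues differed between the sides. All 8 measured urothelial genes were higher on the high side, with a median difference of 1.15, and their mean level ran from -4.93 to 1.38 there and from -4.82 to -2.41 on the low side. Over the 10 unmarked animals 2 of 8 were higher and the median was -0.46, and over 9, without HF 9, 3 of 8 were higher and the median was -0.12. Upk2, a further uroplakin, was well above background on 3 arrays only. Of 6 measured epididymal genes 1 was higher and 5 lower, with a median of -1.10, and their mean level ran from -2.77 to -1.07 on the high side and from -2.80 to 1.38 on the low side. Lcn9, Rnase9, Cst8 and Cst11 were above background on 0 arrays. Their part in the differences above was not tested beyond the repeat over 10 animals.

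Several thermogenic genes are also expressed in striated muscle, so muscle genes were set beside them. Of 13 measured muscle genes 5 were higher and 8 lower on the high side, with a median of -0.25, and 0 had a rho of at least 0.7. Their mean level ran from -4.59 to -2.63 on the high side and from -4.70 to -0.88 on the low side. Acta1, skeletal actin, was 3.67 in HF 9, a low-side animal, and between -4.58 and -2.49 in the others. Myh1 was well above background on 0 arrays. Tnnc2, fast troponin C, was 4.13 in HF 9 but also 3.30 in HFT 24, 1.56 in HFT 22 and 2.95 in HF 35, all of the high side. With single animals left out the list median ran from -0.37 to 0.02, above 0 without HF 9, and within slides 1 to 4 it was 0.09, 0.79, -0.75 and 0.48. Over 9 animals 9 of 13 muscle genes were higher and the median was 0.15. The part of muscle in the differences of Cox8b, Cpt1b, Fabp3 and Colq was not tested.

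The remaining lists had medians between -0.11 and 0.26 over 16 animals. Of 14 lymphocyte genes 7 were higher, with a median of -0.05, but over 10 animals 12 were higher with a median of 0.28. That was the highest list median over 10 animals, above the thermogenic one at 0.17. Over 9 animals the lymphocyte median was 0.22, with 11 higher. Of 16 macrophage genes 6 were higher and 10 lower, with a median of -0.07, and over 10 animals 7 were higher with a median of -0.006. Lyz2, lysozyme, was at -0.40 (rho -0.68) over 16 animals. Its highest animals were HFT 28 (4.09) and HF 8 (3.65), low-side arrays with Lcn5 above 0. The endothelial list had 11 of 14 higher, by amounts up to 0.24, with a median of 0.03, against 55.2% of all genes higher. Cdh5 was among the 3 lower members, by a larger amount. In the preadipocyte and fibroblast list 5 of 13 were higher. Of 12 nerve and Schwann cell genes 10 were higher, with Uchl1 at 1.36, but Uchl1 was at -0.78 over the 10 unmarked animals, and its highest animals were HF 35, HFT 24 and HFT 22, the arrays with Upk3a. Th, tyrosine hydroxylase of sympathetic nerves, was at 0.12. The nerve list had a median of 0.26 over 16 animals and -0.09 over 10. The proliferation list had 2 of 17 higher and 15 lower, with a median of -0.11. In the smooth muscle and mesothelial lists the medians were -0.02 and -0.06 over 16 animals but -0.54 and -0.62 over 10. Over 9 animals, without HF 9, the smooth muscle median was 0.08 and the mesothelial one -0.58, with 0 of 8 mesothelial genes higher.

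**Figure D4:**
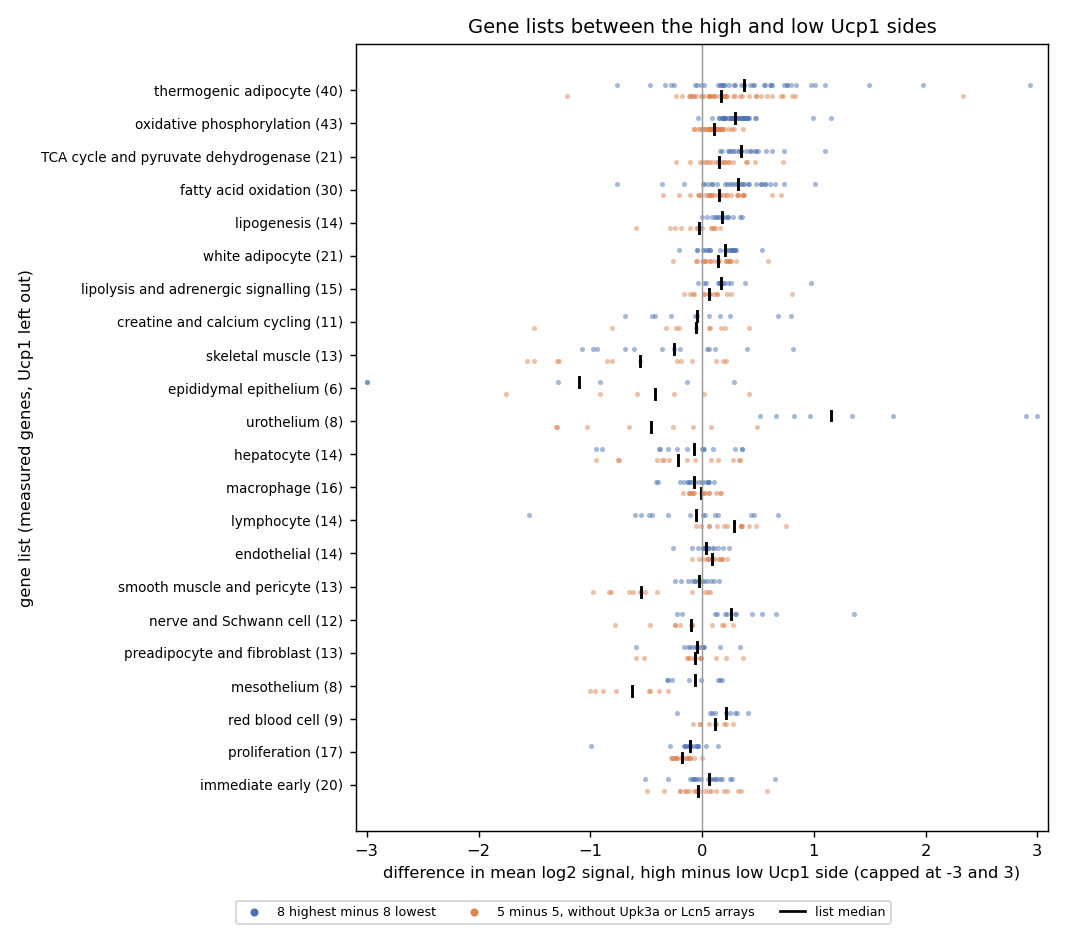
Difference in mean log2 signal between the high and low Ucp1 sides (horizontal axis, capped at -3 and 3) for each measured gene of 22 lists (rows, number of genes in brackets), blue for 8 against 8 animals and orange for 5 against 5 without arrays with Upk3a or Lcn5 above 0; black bars are medians. The mitochondrial lists keep a median above 0 in both, as do the thermogenic, white adipocyte, lipolysis, endothelial and red blood cell lists. The urothelial median goes from 1.15 to -0.46.

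The repeat over 10 animals gave the same split whether the sides were kept or the animals were ranked again. In it 42 genes were wholly higher on the high side (0.362%) and 35 wholly lower (0.302%), while 234 had a rho of at least 0.7 (2.02%) and 186 of at most -0.7 (1.6%). With 5 animals a side, these shares are not on the same footing as those over 16. Of the 207 genes with a rho of at least 0.7 over 16 animals, 83 (40.1%) also reached it over 10. Over 10 animals 98.1% of the 207 had a difference above 0, against 51.2% of all genes. Of the 99 at most -0.7, 30 (30.3%) also reached that over 10. The 10 animals are part of the 16, so this is not an independent repeat. Among genes with a difference of at least 0.5 over 10 animals, the 10 of highest rho were Cox8b, Plin5, Perm1, Colq, Glod5, Gfap, Cpt1b, Cidea, Ntrk3 and Hpdl. Perm1, a muscle regulator of oxidative genes that is induced by PGC-1 and ERR, differed by 1.06 log2 units over 16 animals. Glod5 had a difference of only 0.12 over 16 animals, because the 3 arrays with Lcn5 lay at -1.28, -1.42 and -1.43. Among genes with a difference of at most -0.5 the lowest were Star, Fgf2, Robo2, Qsox1 and Prkg1. Qsox1 was 4.94 in HF 9, and over the 9 animals without HF 9 Qsox1 differed by -0.28 and Fgf2 by -0.49.

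The relation with Ucp1 was then read inside each labelled group, where the treatment is held constant. Cox8b had an r of 0.98 in HF and 0.99 in HFT, Colq 0.98 and 0.96, Cidea 0.95 and 0.90, Cpt1b 0.96 and 0.94, and Otop1 0.84 and 0.69 (8 animals each). An r of at least 0.7 was reached by 703 genes in HF and 247 in HFT, of which 68 were shared. The shared genes are 9.67% of the HF genes and 27.5% of the HFT genes, and over all genes 2.13% reached it in HFT and 6.07% in HF. The median r of the respiratory chain list was 0.77 in HF and 0.56 in HFT, and that of the thermogenic list 0.54 and 0.48. The difference between the groups was not tested, and each group holds arrays with the markers of other tissues.

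**Figure D5:**
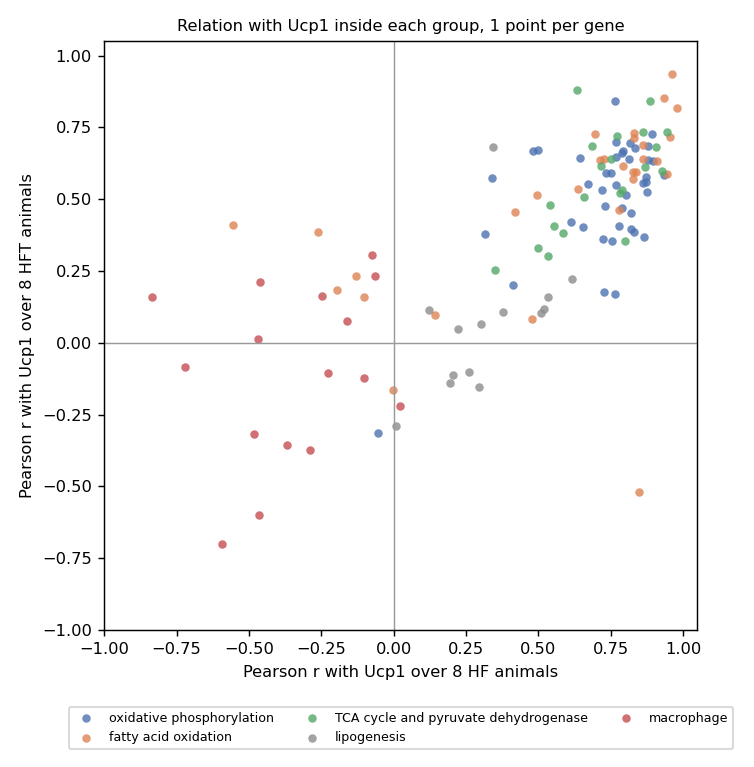
Pearson's r with Ucp1 over the 8 HF animals (horizontal axis) and over the 8 HFT animals (vertical axis), 1 point per gene, coloured by gene list. Most points of the 3 mitochondrial lists lie in the upper right, where r is above 0 in both groups, and macrophage genes lie around or left of 0.

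The genes that went with Ucp1 were also read in the labelled comparison, which the ranking did not use. Of the 207 genes with a rho of at least 0.7, 0 passed limma's adjusted p of 0.05 for HFT minus HF, as did 0 of all 21808 probes. Cox8b was -0.26 (SE 0.82), Cidea -0.21 (SE 0.27), Otop1 -0.08 (SE 0.22) and Cpt1b -0.02 (SE 0.32). These standard errors are large beside the differences, so the fit does not show that the groups are alike.

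Slide went with the sides, so the animals were also split into the 2 higher and 2 lower Ucp1 animals of each slide. For slides 1 to 4 the Ucp1 difference was then 3.02, 1.63, 2.27 and 1.97, and that of Cox8b 2.33, 1.79, 1.76 and 1.51. Cidea differed by 0.72, 0.24, 0.69 and 0.74, Cpt1b by 0.74, 0.23, 0.47 and 0.83, and Colq by 1.71, 0.74, 0.88 and 1.51, so these genes were higher on all 4 slides. Otop1 was higher on slides 1, 3 and 4 and at -0.036 on slide 2. The medians of the mitochondrial lists were above 0 on slides 1, 3 and 4, while on slide 2 they were -0.011 for the respiratory chain, 0.035 for the TCA cycle and -0.034 for fatty acid oxidation. Slide 2 had the smallest difference in Ucp1. Robo2, Zfhx4, Dcdc2 and Acsm3, picked by rho on these same arrays, were lower on all 4 slides. Dcdc2 differed by -3.14, -0.58, -2.12 and -0.22, and Acsm3 by -2.79, -0.11, -1.41 and -0.19. The lower animals of slide 1 were HF 8 and HFT 23, and those of slide 3 included HFT 28, all with Lcn5 above 0. The share of all genes with the same sign on all 4 slides was not counted.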

How the data were processed

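Per the labels' protocols, total RNA of each animal was amplified and labelled with Cy3 (Agilent's Low Input Quick Amp kit) for 16 arrays. The authors deposited spot intensities from Agilent Feature Extraction 10.7.3.1, per the file headers and the submitters' processing notes; the processed intensity is corrected for background and is not normalized between arrays. A table of log2 values was also deposited by the authors, whose normalization is not given in the sources used; it served as an alternative.

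The processed intensities were put on the log2 scale, and each array's 75th percentile over its spots other than controls was subtracted. Spots marked as outliers or not uniform were left out and repeated spots averaged. A probe was kept where at least 4 of 8 HF or 4 of 8 HFT arrays had it well above background (21808 probes). Probes were named through RefSeq accessions (GRCr8): 18005 probes had a symbol, and 11592 genes were kept, each by its probe of highest mean. HFT was compared with HF by limma 3.58.1 (R 4.3.3) at an adjusted p of 0.05. The high against low Ucp1 split has no test. Both calculations were tested on simulated data. Genes were named by this rule: all measured members of the thermogenic list, the 15 genes of highest and 10 of lowest rho with a difference of at least 0.5, the 10 and 5 of the same over 10 animals, up to 3 members of each other list, and Upk3a and Lcn5. Of the genes that this rule names, 1 is not reported here. Further members of the lists are named for their role, chosen with their values known. The animals, the markers and the 22 gene lists were chosen with earlier results of these data known. Alternatives were the deposited values, quantile normalization, normexp with quantile normalization (on the median intensity, planned on the raw one), other filters, other splits and leaving out each array.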

Additional observations from a re-analysis of the deposited data

Results flagged for a closer look

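Among the 68 genes of the thermogenic list and of the highest and lowest rho, 17 values lay far from the other 7 animals of their group by Dixon's test, out of 136 groups of 8 (12.5%). For genes not picked by their values chance flags about 1 in 20. Part of the 68 was picked by rho with Ucp1 on these same arrays, so that rate is no yardstick for them. HF 35, the animal of highest Ucp1, was far above the other HF animals in 7 genes: Gk (0.7217), Ppara (-2.422), Pank1 (-0.7654), Gpd2 (1.227), Colq (-3.279), Pex6 (-0.0991) and Perm1 (-2.452). HFT 28 was far below the other HFT animals in 3, Ppargc1a (-6.622), Ppargc1b (-1.563) and Pex6 (-5.42). HF 8, an array with Lcn5 above 0, was far above in Acsm3 (-2.079), Dcdc2 (-1.715), Corin (-3.702) and Kcnk5 (1.272). HF 9, the array with high skeletal actin, was far above in Cited1 (3.314), Atp2a2 (3.859) and Qsox1 (4.941). All values are log2 relative to the array's 75th percentile.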

How the results depend on the processing

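All 16 animals kept their side under normexp, quantile normalization, the deposited values and with marked spots kept, while 14 of 68 named genes and 13 of 22 list medians changed sign under at least 1 other processing or split, single arrays aside. Without the 6 marked arrays the sign turned in 5 genes (Dio2 -0.01255, Slc27a2 0.06042, Kcnk3, Adrb3 and Esrra) and 5 list medians (urothelial -0.4573, lipogenesis, lymphocyte, nerve and immediate early). Without HF 9 as well, added after the data were seen, it turned in Dio2 (-0.04491), Sgk2 (-0.1063) and 6 others and in the urothelial (-0.1157), epididymal (0.1842) and 7 other medians, and the median of fatty acid oxidation was 0.07794. The genes whose ranges do not overlap (4) became 77 without the 6 arrays (128 without HF 9 too), 314 for 5 highest against 5 lowest, 8 with slides halved, and 4 to 13 with single arrays left out (over 1.5 times for HFT 22, HF 10, HFT 24, HFT 25 and HFT 27). The genes with a difference of at least 1 (47) became 18 with normexp, 24 with the deposited values, 109 for 5 against 5, 106 within slides, 82 with no filter, 28 with all 16 arrays above background, and 23 to 64 with single arrays left out (HFT 22, HFT 24 and HF 35). The genes with a difference of at most -1 (219) became 90, 124, 440, 414 and 102 under normexp, deposited values, 5 against 5, no filter and all 16 above background, 104 without the 6 arrays (56 without HF 9 too), and 131 to 315 with single arrays left out (HF 8 and HFT 28). The genes with rho of at least 0.7 (207) became 315 without HF 9 and the 6, 518 for 5 against 5, 135 within slides, and 162 to 345 with single arrays left out (HFT 26). The genes with rho of at most -0.7 (99) became 186 without the 6 arrays (294 without HF 9 too), 389 for 5 against 5, 155 within slides, and 66 to 151 with single arrays left out (HF 13). Fewer genes are tested under the stricter filter; the other causes were not tested. With slide as a block, limma called 0 probes (HFT minus HF, probes at unadjusted p under 0.05 numbered 736) and Ucp1 was again at -0.54. The labels give the groups no shared replicate numbers.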
